A study of Homo sapiens with 6 samples.

Results

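The heat shock and cytosolic chaperone genes described here were 43 named genes out of 20263 in the count table. These genes were picked by gene symbol, with earlier results of these data known. They were sorted by role into 2 regulators (heat shock factors), 11 heat-induced cytosolic chaperones and cochaperones, 15 constitutive ones, 8 subunits of the cytosolic chaperonin, 6 mitochondrial chaperones and 1 HSP70-like protein of the endoplasmic reticulum (ER) side. By current symbol each gene matched exactly 1 entry, and all 43 passed the filter on low counts. RNA was sequenced from cells labelled LNCaP, a line from a hormone-dependent prostate cancer. Libraries of the first group came from cells given a LINC01518 overexpression vector (3 libraries), and libraries of the second from cells given an empty vector (3 libraries), so transfection with a vector was common to both. The sample labels and the title name LINC01518, a long non-coding RNA, whereas the design text names a MEG3 vector. Both RNAs were not analysed here, and whether the insert was raised therefore remains unchecked. The labels do not say that replicates were separate cultures or transfections, so the p-values speak only of how far these libraries scatter, and that scatter may be technical. No dose or time after transfection is stated by the labels.

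Chaperones bind unfolded or partly folded proteins and let them fold or pass to degradation. HSP70 proteins cycle on and off their clients with the help of J-domain cochaperones, which deliver clients and speed ATP hydrolysis, and of exchange factors such as the BAG proteins and the HSP110 family. HSP90 acts later on a narrower set of clients, among them kinases and steroid receptors. Under protein-damaging stress HSF1 forms trimers, binds heat shock elements in promoters and switches on the inducible set, while the constitutive set serves unstressed growth.

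The heat shock element is a run of inverted repeats of the unit NGAAN, and it was searched on both strands as 2 units (GAANNTTC or TTCNNGAA) and as 3 units (the same letters extended by NN and a further unit in the next orientation, so that every 3-unit match also holds 2-unit matches). RefSeq promoter windows, on build GRCh38.p14 and running from 250 bases before to 50 after the annotated start, were matched for 39 of the 43 genes (not for HSF1, HSPA14, FKBP4 and CCT6A). A 3-unit element stood in 8 of the 39 genes (20.5%), against 0.608% of all 27305 genes with a window, and a 2-unit element stood in 19 of 39 (48.7%), against 16.2%. The 8 genes were HSPA6, HSP90AA1 and CHORDC1 of the heat-induced class, HSPA8, HSP90AB1, DNAJA1 and DNAJB6 of the constitutive class, and the mitochondrial HSPD1. By class, 2 units or more stood in 8 of 11 heat-induced genes, 6 of 13 constitutive genes, 3 of 7 chaperonin subunits and 2 of 6 mitochondrial genes. CCAAT, searched in the same way, stood in 38.5% of the members and 39.7% of all genes, and TATAAA in 15.4% and 14.0%. These are matches of letters, not measured binding.

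The windows below are shown because they contrast promoters with and without the element among the genes that the results turn on; capitals mark the elements and all other bases are in lower case. HSPA1A (chr6:31815293-31815592, plus strand) encodes the inducible HSP70, and HSPA6 (chr1:161524290-161524589, plus strand) encodes a strictly stress-inducible HSP70 with its first 3-unit element beginning at -74 from the start. HSPA8 (chr11:123062087-123062386, minus strand) encodes the constitutive HSC70, with its first 3-unit element at -230. HSPD1 (chr2:197499791-197500090, minus strand, the first of its windows) encodes the mitochondrial HSP60, with the 3-unit element at -245. HSPA13 (chr21:14383097-14383396, minus strand) held no element in its window.
HSPA1A: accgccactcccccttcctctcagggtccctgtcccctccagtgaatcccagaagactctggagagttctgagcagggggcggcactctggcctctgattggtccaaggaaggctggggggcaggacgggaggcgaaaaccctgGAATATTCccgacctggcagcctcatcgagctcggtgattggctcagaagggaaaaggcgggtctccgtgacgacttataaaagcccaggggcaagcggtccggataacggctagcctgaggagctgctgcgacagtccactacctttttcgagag
HSPA6: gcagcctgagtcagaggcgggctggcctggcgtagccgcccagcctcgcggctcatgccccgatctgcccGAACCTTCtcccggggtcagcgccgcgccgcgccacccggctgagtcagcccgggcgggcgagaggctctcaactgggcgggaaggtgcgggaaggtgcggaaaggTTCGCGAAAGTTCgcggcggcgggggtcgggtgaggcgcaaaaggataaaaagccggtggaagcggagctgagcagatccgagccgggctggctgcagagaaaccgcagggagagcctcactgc
HSPA8: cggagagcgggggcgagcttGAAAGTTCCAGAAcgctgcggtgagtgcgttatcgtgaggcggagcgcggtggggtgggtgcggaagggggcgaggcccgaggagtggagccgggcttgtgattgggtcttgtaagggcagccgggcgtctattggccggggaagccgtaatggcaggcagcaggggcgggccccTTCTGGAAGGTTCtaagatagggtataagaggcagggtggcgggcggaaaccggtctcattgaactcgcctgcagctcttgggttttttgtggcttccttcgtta
HSPD1: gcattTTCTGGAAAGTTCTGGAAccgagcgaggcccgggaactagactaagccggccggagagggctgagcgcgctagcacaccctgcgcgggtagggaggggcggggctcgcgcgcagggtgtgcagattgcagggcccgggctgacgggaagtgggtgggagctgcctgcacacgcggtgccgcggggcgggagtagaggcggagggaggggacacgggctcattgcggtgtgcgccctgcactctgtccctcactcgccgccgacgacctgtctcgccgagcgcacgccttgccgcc
HSPA13: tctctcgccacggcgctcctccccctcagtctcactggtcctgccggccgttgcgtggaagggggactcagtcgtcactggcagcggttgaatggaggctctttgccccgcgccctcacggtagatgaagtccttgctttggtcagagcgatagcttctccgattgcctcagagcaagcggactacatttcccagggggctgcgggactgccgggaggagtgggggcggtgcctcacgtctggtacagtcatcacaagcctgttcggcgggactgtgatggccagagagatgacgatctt

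The most abundant chaperone transcripts in these cells were the constitutive HSP90AB1 and HSPA8, and the least abundant was the strictly inducible HSPA6. Levels between genes were compared in deposited TPM (a share of all transcripts that takes gene length into account), as the mean of the 6 libraries. HSP90AB1, the constitutive HSP90, stood at 1095 TPM, HSPA8 at 1005, the chaperonin subunit CCT5 at 894.3 and HSP90AA1, the inducible HSP90, at 690.8. CCT3, the mitochondrial HSP70 gene HSPA9 and TRAP1, the mitochondrial HSP90, followed at 523.1, 443.7 and 433.5 TPM. The inducible HSPA1A and HSPA1B stood at 372.8 and 344.7 TPM, so the level of this main inducible HSP70 pair was within an order of magnitude of HSPA8. Untreated and heat-shocked cells were not sequenced, so whether this is an unstressed level was not tested. At the low end DNAJB5, a J-domain protein, stood at 8.25 TPM, HSF2 at 8.23 and HSPA6 at 0.671. By class, the median over members was 249.7 TPM for the chaperonin, 230.2 for the mitochondrial genes, 115.0 for the heat-induced genes and 83.0 for the constitutive genes. In all, 26 of 43 members reached 100 TPM and 3 stayed under 10.

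**Figure D1:**
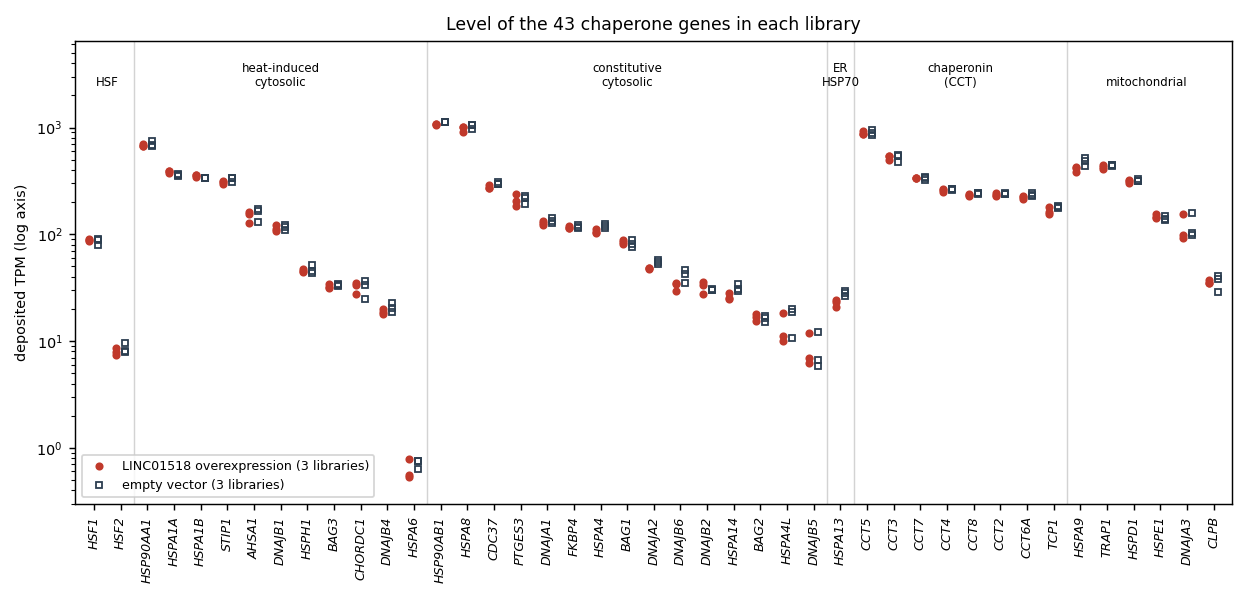
Deposited TPM of the 43 chaperone genes (log axis) in each library, grouped by class and with LINC01518 overexpression (filled circles) left of empty vector (open squares). HSP90AB1 (1095 TPM) and HSPA8 (1005 TPM) are highest, HSPA6 is under 1 TPM, and within nearly every gene the spread among the 6 libraries is small against the differences between genes.

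At the top of the order HSP90AB1 and HSPA8 kept their places in either group, whereas HSPA9 and TRAP1 overlapped in both groups, as did DNAJB5 and HSF2. HSP90AB1 had 1063 ± 9.38 TPM with LINC01518 overexpression and 1126 ± 5.88 TPM with empty vector, and HSPA8 had 979.2 ± 59.7 TPM with overexpression and 1030 ± 46.1 TPM with empty vector, so HSPA8 lay lower in either group (SD, n = 3 each). HSPA9 had 407.7 ± 21.9 and TRAP1 426.4 ± 18.4 TPM with overexpression, against 479.7 ± 37.8 and 440.7 ± 7.5 TPM with empty vector (SD, n = 3 each). CCT5 had 894.0 ± 34.8 TPM with overexpression and 894.5 ± 47.9 TPM with empty vector. The 43 genes summed to 9767, 9563 and 9756 TPM in the overexpression libraries, against 10161, 9825 and 10064 TPM in the empty vector libraries. That is 0.970% with overexpression against 1.002% with empty vector of all TPM, and the groups did not overlap. The whole TPM scale was shifted in the same direction: the median log2 difference in TPM (pseudocount 1) was -0.04 over all genes tested and -0.04 over the members tested. HSP90AB1 made up 61.0% ± 0.644 of HSP90AA1 and HSP90AB1 TPM together with overexpression and 61.7% ± 1.23 with empty vector, which lie within the replicate spread.

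None of the 43 members passed the edgeR test between LINC01518 overexpression and empty vector. On counts, with edgeR's quasi-likelihood test and Benjamini-Hochberg adjustment over 13543 genes, 0 of 43 members were called higher, against 484 or 3.57% of all genes, and 0 were called lower, against 275 or 2.03%. With library sizes alone in place of TMM scaling (trimmed mean of M values), the same counts gave 346 genes higher and 382 lower, and again 0 members in either direction. At an unadjusted p under 0.05, 3 members (6.98%) were higher, against 12.3% of all genes, and 4 (9.30%) were lower, against 11.4%. The higher ones were HSPA1A, HSPA1B and BAG1, and the lower ones were HSPA13, HSPA9, DNAJA2 and HSPA14. In the same 3 genes every overexpression library lay above every empty vector library, a pattern that 15.9% of all genes shared, and in the same 4 every overexpression library lay below, shared by 15.5%. DESeq2 called 2 members lower, HSPA13 (adjusted p = 0.0249) and HSPA9 (adjusted p = 0.0312), against 3.93% of all genes, and it called 0 higher, against 5.79%. Limma-voom called 0 in either direction, against 3.51% of all genes higher and 2.01% lower. Limma on log2(TPM + 1) also called 0 of 42 members tested, against 0.998% of 12329 genes higher and 1.29% lower. On that scale 0 members were higher and 7 lower at an unadjusted p under 0.05, against 7.79% and 14.4% of all genes, and 32 of the 43 members had a lower mean with overexpression.

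The differences were small as well as uncalled. The log2 fold changes (overexpression over empty vector) of the 43 genes ran from -0.26 to 0.15 with a median of -0.02, and their median size was 0.043, against 0.129 over all genes. The members and all genes were not matched for expression level, on which the scatter of an estimate depends. The estimate was under 0.1 in size for 34 members, 20 were positive and 23 negative. The 95% interval of the log2 fold change lay within 1.2-fold in both directions for 28 members, within 1.5-fold for 41 and within 2-fold for 42. HSPA6, at few counts, and DNAJB5, with a wide spread, were the members whose intervals passed 1.5-fold. A missing call therefore leaves changes of a size inside these intervals undecided.

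**Figure D2:**
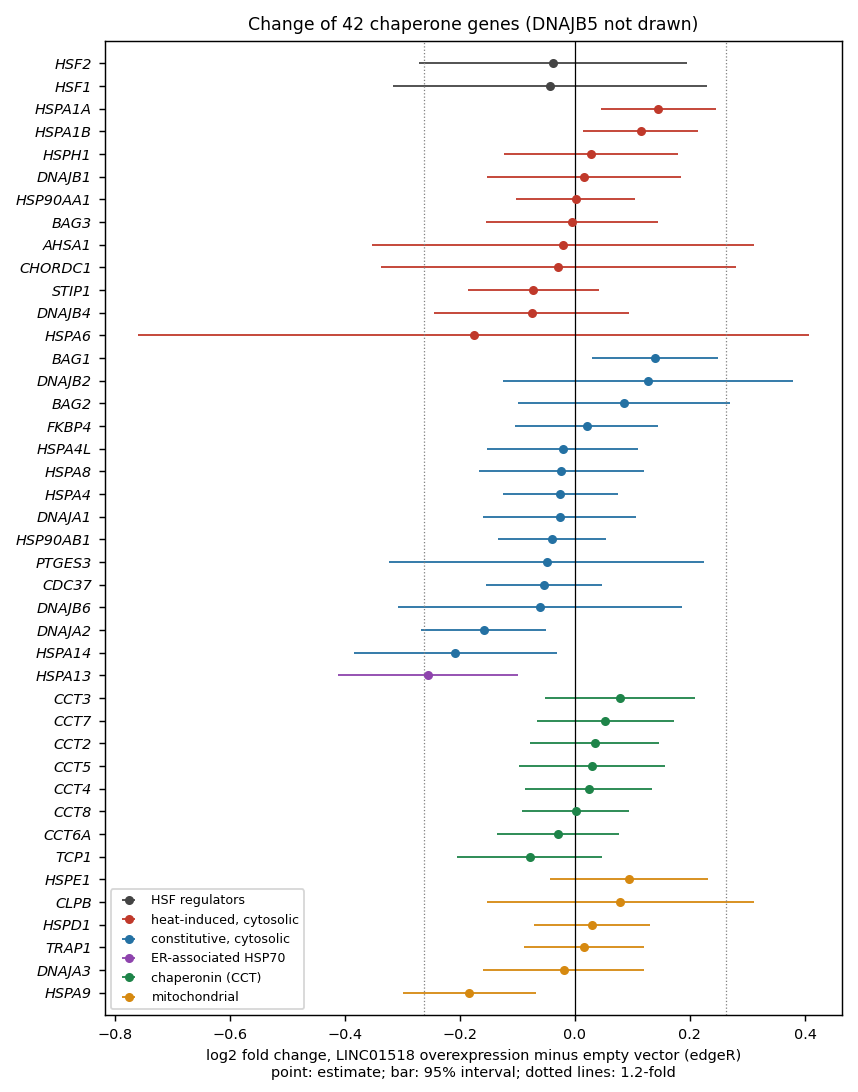
Log2 fold change from edgeR (point) with its 95% interval (bar) for 42 chaperone genes by class; DNAJB5, whose interval runs from -1.32 to 1.47, is not drawn. The estimates sit between -0.26 and 0.15, and 28 intervals stay inside the dotted lines at 1.2-fold.

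The regulators were at like levels in both groups. HSF1, the master factor of the heat shock response, had 71.0, 62.9 and 81.8 CPM (counts relative to the TMM-scaled library size) in the overexpression libraries, against 79.8, 64.9 and 77.6 CPM in the empty vector libraries. The groups overlapped throughout, and the log2 fold change was -0.04 with an SE of 0.116 (edgeR adjusted p = 0.859). HSF2, a related factor that can join HSF1 in mixed trimers, had 9.79, 10.3 and 11.1 CPM with overexpression and 11.8, 9.99 and 10.1 CPM with empty vector, again overlapping (log2 fold change -0.04, edgeR adjusted p = 0.857). HSF1 is controlled largely by its binding partners and by modification, which mRNA levels do not show.

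Among the heat-induced genes the inducible HSP70 pair differed most in the upward direction, without passing the test. HSPA1A (ENSG00000204389, chromosome 6, 31815464 to 31817946, GRCh38) had 504.0, 475.0 and 504.4 CPM in the overexpression libraries, against 446.5, 439.8 and 455.2 CPM in the empty vector libraries. All 3 overexpression values were above all 3 empty vector values, with means of 494.5 ± 16.9 and 447.2 ± 7.72 CPM (SD, n = 3 each) and a log2 fold change of 0.15 (SE 0.043, 95% interval 0.05 to 0.25, edgeR adjusted p = 0.0947). HSPA1B had 470.1, 444.9 and 471.0 CPM with overexpression and 420.3, 423.4 and 436.7 CPM with empty vector, likewise without overlap (0.11 ± 0.043 as log2 fold change and SE, edgeR adjusted p = 0.162). The 2 genes are not independent measurements: their 1926 coding bases differ at 4 positions, the encoded proteins of 641 residues are identical, and 69.9% of all 100-base stretches of the HSPA1A transcript recur in HSPA1B. Summed into 1 gene, they gave 0.13 ± 0.043 (log2 fold change and SE, edgeR adjusted p = 0.125). HSPA1B also shares 36.5% of its exon bases with a gene on the same strand.

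HSPA6, which is nearly silent without stress, had 29, 26 and 37 counts in the overexpression libraries, against 37, 33 and 37 counts in the empty vector libraries. The values overlapped and were too few for a narrow estimate, with a log2 fold change of -0.18 and a 95% interval from -0.76 to 0.41 (edgeR adjusted p = 0.715). None of its 2272 stretches of 100 bases recurred in HSPA1A, so exact sharing of reads with the abundant pair was not seen at that length.

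The J-domain, HSP110 and HSP90 partners of the induced set were close to level. DNAJB1, the HSP40 that works with HSP70 and a classical HSF1 target, had 117.7, 122.7 and 134.1 CPM with overexpression and 112.6, 126.8 and 131.1 CPM with empty vector (log2 fold change 0.02, edgeR adjusted p = 0.922). HSPH1, an HSP110 exchange factor, had 87.6, 83.7 and 88.0 CPM with overexpression, against 92.0, 78.6 and 83.7 CPM with empty vector (log2 fold change 0.03, edgeR adjusted p = 0.833). BAG3, which links HSP70 to autophagy, had 38.8, 40.2 and 42.8 CPM with overexpression and 41.0, 39.1 and 42 CPM with empty vector (log2 fold change -0.0046, edgeR adjusted p = 0.978). In each of these 3 genes the groups overlapped. HSP90AA1 had 1142, 1114 and 1154 CPM in the overexpression libraries, against 1183, 1101 and 1123 CPM in the empty vector libraries. Its group means, 1137 ± 20.9 and 1136 ± 42.2 CPM, were nearly the same, and the 95% interval of the log2 fold change ran from -0.10 to 0.10. The remaining heat-induced members, DNAJB4, CHORDC1, AHSA1 and STIP1, had log2 fold changes of -0.08, -0.03, -0.02 and -0.07. Across the class the median was -0.0046, with 2 of 11 genes higher and 0 lower at an unadjusted p under 0.05.

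In CPM, constitutive HSP70 and HSP90 overlapped between the groups. HSPA8 had 798.0, 703.0 and 786.3 CPM in the overexpression libraries, against 779.6, 734.5 and 810.6 CPM in the empty vector libraries, overlapping throughout (log2 fold change -0.02, 95% interval -0.17 to 0.12, edgeR adjusted p = 0.858). HSP90AB1 had 1430, 1412 and 1405 CPM with overexpression and 1427, 1444 and 1493 CPM with empty vector, with the lowest empty vector value inside the overexpression range (log2 fold change -0.04, 95% interval -0.13 to 0.05, edgeR adjusted p = 0.600). In TPM HSP90AB1 did not overlap, at 1068, 1069 and 1052 with overexpression and 1133, 1121 and 1126 with empty vector, on a scale where the median difference over all genes was -0.04 (log2). The HSPA8 level in TPM divided by the summed HSPA1A and HSPA1B level was 1.36, 1.27 and 1.35 in the overexpression libraries, against 1.51, 1.42 and 1.51 in the empty vector libraries. This ratio within a library does not depend on library scaling, and it was lower in every overexpression library than in any empty vector library. It is built from the HSPA1A and HSPA1B values already given, so it is not separate evidence from theirs. The annotation names 17 pseudogenes after HSPA8, none of them in the count table.

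Of the constitutive members that lay apart between the groups, DNAJA2 and HSPA14 were lower and BAG1 was higher, none of them past the test. DNAJA2, a J-domain cochaperone of HSC70, had 77.8, 76.3 and 77.2 CPM in the overexpression libraries, against 87.0, 82.9 and 88.1 CPM in the empty vector libraries. The overexpression values were tightly grouped below the others (log2 fold change -0.16, SE 0.047, 95% interval -0.27 to -0.05, edgeR adjusted p = 0.0935). HSPA14, a ribosome-associated HSP70, had 26.2, 23.7 and 23.5 CPM with overexpression and 29.9, 26.5 and 28.4 CPM with empty vector. Of its exon bases, 17.4% are shared with another protein-coding gene on the same strand that is counted separately. Its highest overexpression value lay just under its lowest empty vector value (-0.21 ± 0.077 as log2 fold change and SE, edgeR adjusted p = 0.155). BAG1, an exchange factor that couples HSP70 to the proteasome, had 74.7, 76.1 and 74.8 CPM with overexpression, against 66.5, 70.2 and 68.0 CPM with empty vector. All 3 overexpression values were above the others in CPM (0.14 ± 0.048 as log2 fold change and SE, edgeR adjusted p = 0.131). In TPM the groups overlapped, at 80.9, 87.7 and 83.8 with overexpression and 80.7, 88.6 and 76.4 with empty vector.

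The HSP90 cochaperones were closer to level. CDC37, which brings kinases to HSP90, PTGES3 (p23) and FKBP4 (FKBP52), which take part in steroid receptor complexes, had log2 fold changes of -0.05, -0.05 and 0.02. FKBP4 had 206.9, 186.3 and 205.2 CPM with overexpression and 195.5, 191.4 and 202.9 CPM with empty vector, and the overexpression values spanned the empty vector ones (edgeR adjusted p = 0.854). Of the rest of the class, HSPA4, HSPA4L, DNAJA1, DNAJB2, DNAJB5, DNAJB6 and BAG2 had log2 fold changes from -0.06 to 0.13. BAG2 shares 42.7% of its exon bases with RAB23 on the opposite strand, and no strand setting is given, so their reads cannot be told apart there. The 15 constitutive genes had a median log2 fold change of -0.03, with 1 higher and 2 lower at an unadjusted p under 0.05.

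HSPA13 had the smallest p-value of the 43 genes and the largest difference in size. It encodes a microsomal HSP70-like ATPase (also called STCH) that lacks the peptide-binding domain. HSPA13 had 48.7, 49.8 and 43.4 CPM in the overexpression libraries, against 57.9, 56.5 and 54.8 CPM in the empty vector libraries. Every overexpression library lay below every empty vector library, with means of 47.3 ± 3.42 and 56.4 ± 1.54 CPM (SD, n = 3 each). The log2 fold change was -0.26 (SE 0.068, 95% interval -0.41 to -0.10), and the edgeR adjusted p was 0.0680, which missed the threshold of 0.05.

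**Figure D3:**
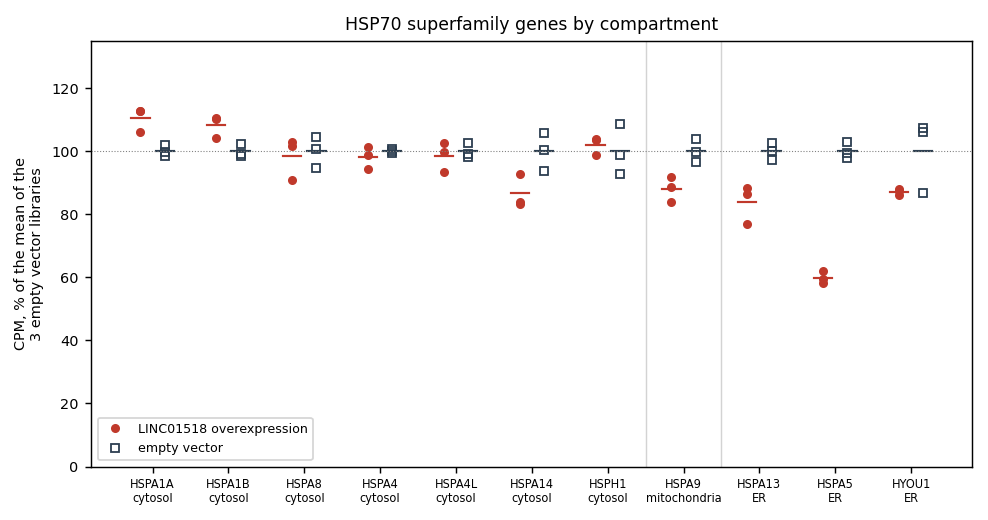
Each library's CPM as a percentage of the mean of the 3 empty vector libraries for genes of the HSP70 superfamily by compartment. LINC01518 overexpression is left of empty vector, lines mark group means, and HSPA6 is not drawn. With overexpression HSPA1A and HSPA1B sit above 100%. HSPA13, the mitochondrial HSPA9 and the cytosolic HSPA14 sit below it, and HSPA8 and HSPA4 overlap. HSPA5 and HYOU1, HSP70 family genes of the ER and no members of the 43, are drawn beside them.

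The cytosolic chaperonin (TRiC), a double ring of different subunits that folds actin, tubulin and WD-repeat proteins, showed no called subunit. TCP1 had 177.7, 167.5 and 184.5 CPM in the overexpression libraries, against 181.0, 182.3 and 196.1 CPM in the empty vector libraries (log2 fold change -0.08, edgeR adjusted p = 0.428). CCT2 had 247.3, 226.4 and 231.7 CPM with overexpression and 228.0, 225.0 and 236.1 CPM with empty vector (log2 fold change 0.03, edgeR adjusted p = 0.714). CCT3 had 550.6, 537.0 and 519.5 CPM with overexpression, against 486.2, 489.9 and 546.4 CPM with empty vector, where a single empty vector library reached the overexpression range (log2 fold change 0.08). CCT5 had 1089, 980.8 and 1009 CPM with overexpression and 984.3, 977.3 and 1054 CPM with empty vector (log2 fold change 0.03). The groups overlapped in each of these subunits. The 8 estimates ran from -0.08 to 0.08 with a median of 0.03, and 0 of 8 subunits reached an unadjusted p under 0.05 in either direction. Although the subunits share 1 complex, the CCT5 level was 5.40 ± 0.542 times the TCP1 level in TPM with overexpression and 4.96 ± 0.325 times with empty vector (SD, n = 3 each), and these ratios overlapped within their spread. Of the CCT5 exon bases, 30.1% overlap another annotated gene.

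Of the mitochondrial chaperones, HSPA9 was lower without passing the test and the others lay close to level. HSPA9 (mortalin), the matrix HSP70 that pulls in imported proteins, had 561.8, 542.3 and 513.8 CPM in the overexpression libraries, against 635.5, 610.0 and 592.0 CPM in the empty vector libraries. No values overlapped, and the means were 539.3 ± 24.1 and 612.5 ± 21.8 CPM (SD, n = 3 each), with a log2 fold change of -0.18 (SE 0.050, 95% interval -0.30 to -0.07, edgeR adjusted p = 0.0746). The HSP60 and HSP10 genes HSPD1 and HSPE1, which share a promoter region between them and form the matrix folding chamber, did not follow it. HSPD1 had 368.3, 366.7 and 367.7 CPM with overexpression and 345.8, 361.3 and 373.2 CPM with empty vector (log2 fold change 0.03, edgeR adjusted p = 0.723). HSPE1 had 70.4, 68.0 and 76.1 CPM with overexpression, against 68.9, 64.6 and 67.4 CPM with empty vector (log2 fold change 0.09, edgeR adjusted p = 0.381). Both pairs of groups overlapped. The 2 genes are annotated on opposite strands with overlapping exons (6.62% of HSPD1 and 14.2% of HSPE1), and the annotation names 17 pseudogenes after HSPD1 and 26 after HSPE1, none of them in the count table. TRAP1, DNAJA3, a J-domain partner of HSPA9, and CLPB, a disaggregase, had log2 fold changes of 0.02, -0.02 and 0.08. Of the TRAP1 exon bases, 29.3% overlap DNASE1 on the opposite strand. The class median was 0.02, with 0 of 6 genes higher and 1 lower at an unadjusted p under 0.05.

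Set beside the promoter letters, the 8 genes with a 3-unit element had log2 fold changes between -0.18 (HSPA6) and 0.03 (HSPD1), 6 of them negative and 2 positive, and 0 of the 8 were called. Of the 19 genes with a 2-unit element or more, 11 were negative and 8 positive. Of the genes whose groups lay apart, HSPA1A and HSPA1B, which were higher, and HSPA9, which was lower, held a 2-unit element, whereas HSPA13 and DNAJA2, which were lower, and BAG1, which was higher, held neither form; HSPA14 had no matched window. No test was made of these counts.

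In 30 of the 43 genes the SD of log2 CPM within groups was larger than the difference between groups, and a few genes varied widely. DNAJB5 had 8.36, 6.51 and 15 CPM in the overexpression libraries, against 5.42, 7.06 and 15.8 CPM in the empty vector libraries. The library numbered 3 was the highest in either group, and the log2 fold change of 0.08 had an SE of 0.541. DNAJB5, like AHSA1 and CHORDC1 below, was picked after its values were seen. AHSA1, the activator of the HSP90 ATPase, had 86.8, 106.2 and 107.1 CPM with overexpression and 84.3, 104.8 and 115.2 CPM with empty vector, lowest in the library numbered 1 of either group. CHORDC1, an HSP90 cochaperone, had 39.4, 31.5 and 37.4 CPM with overexpression, against 42.8, 31.2 and 36.4 CPM with empty vector, lowest in the library numbered 2 of either group. The pooled SD of log2 CPM within groups was 0.719 for DNAJB5, 0.246 for HSPA6, 0.204 for AHSA1, 0.201 for CHORDC1 and 0.176 for HSF1. In HSPA4L and DNAJA3 counts and TPM disagreed between libraries. HSPA4L had 56.1, 61.8 and 60.0 CPM but 9.98, 11.1 and 18.3 TPM with overexpression, and 61.7, 59.1 and 59.6 CPM but 18.9, 19.95 and 10.7 TPM with empty vector, so its TPM varied about as much within as between groups.

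**Figure D4:**
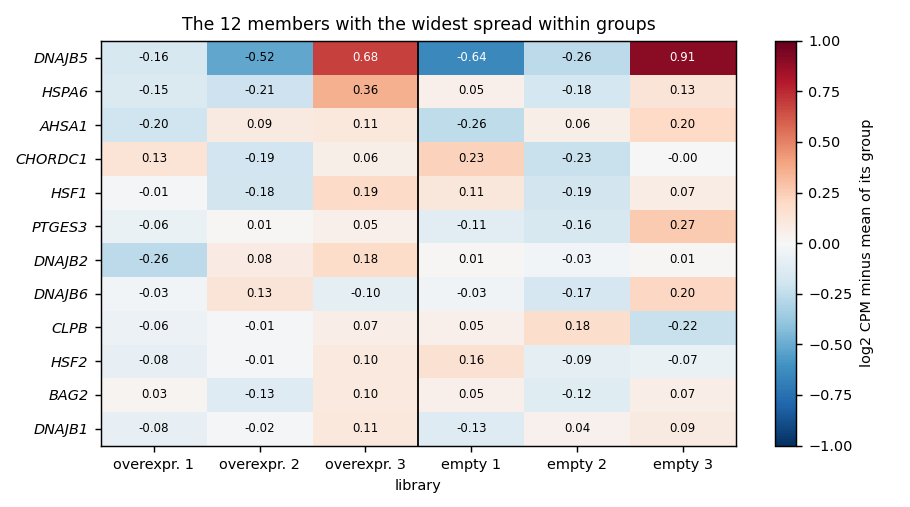
Log2 CPM minus the mean of the library's own group for the 12 members with the widest spread within groups, overexpression libraries in the 3 left columns and empty vector libraries in the 3 right. DNAJB5 spans from -0.52 to 0.68 among overexpression libraries and from -0.64 to 0.91 among empty vector libraries.

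Genes of the wider chaperone network were counted from 5 further lists. Of their 93 tested genes, 12 were called, 5 higher and 7 lower, where all genes gave 3.57% higher and 2.03% lower. The lists were written with earlier results of these data known, so these counts are no separate evidence about the network. Of 31 further cochaperones, 0 were called in either direction (median log2 fold change -0.02), as for the 43 genes themselves. Of 22 further genes, listed as HSF family, HSF1 control or heat-induced and not all of them chaperones, 4 were called higher and 2 lower. CRYAB, the small heat shock protein alpha B-crystallin, was higher by 0.91 on the log2 scale (edgeR adjusted p = 0.0147), and HSPB8, a small heat shock protein that works with BAG3, by 0.46 (edgeR adjusted p = 0.0163). MRPS6, a mitochondrial ribosomal protein, and PPIA, cyclophilin A, were higher by 0.33 and 0.29 (edgeR adjusted p = 0.0314 and 0.0184). SERPINH1, the collagen chaperone HSP47, was lower with a log2 fold change of -0.94 (edgeR adjusted p = 5.3e-04), and GADD45B with one of -0.58 (edgeR adjusted p = 0.0159). Of 13 tested chaperonin partners and substrates, TBCD, a tubulin cofactor, was called higher at 0.26 (edgeR adjusted p = 0.0432) and 0 were called lower. Of 17 mitochondrial quality control genes, 0 were called (median -0.07).

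Among the ER counterparts of the same families the calls all lay in the lower direction. Of 10 ER chaperones of the HSP70, HSP90 and J-domain families, 0 were called higher and 5 lower. The median log2 fold change was -0.30, against a median of -0.0035 over all genes. This list too was written with earlier results of these data known. HSPA5 (BiP), the ER HSP70, had 1774, 1664 and 1704 CPM in the overexpression libraries, against 2849, 2796 and 2942 CPM in the empty vector libraries, a log2 fold change of -0.74 (edgeR adjusted p = 5.3e-04). HSP90B1, the ER HSP90, had a log2 fold change of -0.42 (edgeR adjusted p = 0.00292). DNAJB9, DNAJC3 and DNAJB11, ER J-domain proteins, had log2 fold changes of -0.45, -0.37 and -0.34 (edgeR adjusted p = 0.0222, 0.0144 and 0.0239). HSPA13, the 1 member on the ER side, thus had the same sign, without a call. Whether the cytosolic and ER genes differ was not tested.

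The calls of SERPINH1, HSPA5 and HSP90B1 held in each of the 6 fits that left out 1 library. CRYAB lost its call without overexpression replicate 1 (adjusted p = 0.0507) or 2 (adjusted p = 0.0515), and HSPB8 without overexpression replicate 1 (0.0593) or 2 (0.0502) or empty vector replicate 2 (0.0617). PPIA lost it without any 1 overexpression library or empty vector replicate 2, with adjusted p up to 0.0741, and MRPS6 without any library, with adjusted p up to 0.103. GADD45B lost it without overexpression replicate 1 or 3 or empty vector replicate 2 (up to 0.0621), and TBCD without any library but empty vector replicate 2 (up to 0.142). DNAJB9 lost it without any 1 overexpression library or empty vector replicate 2 (up to 0.0827), DNAJC3 without any 1 overexpression library (up to 0.0595), and DNAJB11 without any library but empty vector replicate 2 (up to 0.0817). All of these are edgeR adjusted p-values. In limma on log2(TPM + 1), 5 of the 12 genes were not called (SERPINH1, MRPS6, PPIA, TBCD and DNAJC3). With a term for the replicate number in edgeR, 0 of the higher calls and 5 of the lower calls remained (SERPINH1, HSPA5, HSP90B1, DNAJB11 and DNAJC3).

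**Figure D5:**
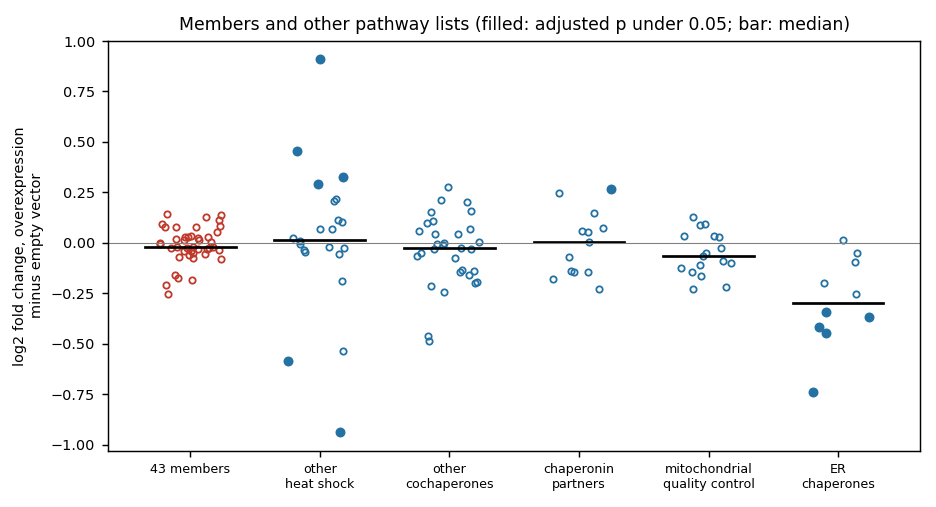
Log2 fold change of each tested gene (LINC01518 overexpression over empty vector) for the 43 members and 5 further lists, with filled points for an edgeR adjusted p under 0.05 and a bar at each median. The members lie between -0.26 and 0.15 with no filled point, while 5 of 10 ER genes are filled and below 0.

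Total counts per library were 38161544 to 42553688, and 3 counts, the limit that a count of 0 allows, corresponded to 0.0703 to 0.0794 CPM, counting error only. The defining markers of the labelled line were only partly present: KRT8 averaged 1670 CPM with overexpression and 1363 CPM with empty vector, and KRT18 1078 and 994.8 CPM, whereas KLK3, TMPRSS2 and FOLH1 had 0 counts in all 6 libraries. COL1A1 was called higher, at 114.2 ± 1.45 CPM with overexpression and 82.4 ± 3.64 CPM with empty vector, as was PDGFRB, making 2 of 4 tested fibroblast markers. In TPM PDGFRB was not higher, at 15.7 with overexpression and 16.3 with empty vector. The other tested markers, COL3A1 and DCN, were not called (edgeR adjusted p = 0.0562 and 0.547). COL1A2 had 2 counts in overexpression replicate 3 and 0 in every other library, and LUM had 0 counts. The immune markers PTPRC, CD3E and LST1 had 0 counts, and CD68 was called lower. In bulk RNA, fewer cells of a type and less RNA per cell cannot be told apart, and the part of these markers in the values above was not tested.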

How the data were processed

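RNA sequencing of 6 libraries, 3 with a LINC01518 overexpression vector and 3 with an empty vector, was used. The submitters' processing notes name Trimmomatic 0.36, HISAT2, featureCounts, Subread 1.5.1 and DESeq as tools and GRCh38 as the build. The count per gene was deposited by the authors unnormalized, in whole numbers. The deposited TPM values served for levels between genes and for alternative fits. Annotation release, strand setting and TPM tool: not given in the sources used here. Symbols came from a gene name table (20148 of 20263 genes) and positions from GENCODE release 29 (20224 genes).

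Counts were tested in R 4.3.3 with edgeR 4.0.16: filterByExpr (minimum count 10, minimum total 15; 13543 genes kept), TMM scaling and a robust quasi-likelihood F test with the group as its only term. Benjamini-Hochberg adjustment ran over all tested genes, with calls under 0.05. The SE is the log2 fold change divided by the root of F, and 95% intervals use the fitted degrees of freedom. Every member was accounted for. Values in each library were given for the 3 smallest p-values in each direction, for the most abundant and most different gene of each class, and for a fixed set of well-known members. Outside these rules they were also given for HSF2, FKBP4, CCT3, DNAJB5, AHSA1, CHORDC1 and HSPA4L. The members, their classes and the further lists were chosen with earlier results of these data known. Alternatives were DESeq2 1.42.0, limma 3.58.1 (voom on counts, and trend on log2(TPM + 1)), other scalings and filters, a replicate block and leaving out each library. On simulated data the edgeR test recovered 6% of 1.2-fold, 62% of 1.5-fold and 88% of 2-fold changes (50 genes at each size). Exon overlaps were computed on GENCODE, and heat shock elements were searched in RefSeq promoter windows. Replicates of a group differed by more than sampling noise.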

Additional observations from a re-analysis of the deposited data

How the results depend on the processing

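The number of all genes called, 759 in the edgeR test, was 1316 with DESeq2, 232 with a replicate block, 282 with limma on log2(TPM + 1), 267 with a pseudocount of 0.1, 152 on TPM without a filter, and 193 to 458 when 1 library was left out. Members called stayed at 0 in each direction under each alternative except DESeq2, with 2 called lower (HSPA13 and HSPA9). Of the 12 called genes of the further lists, the replicate block kept 5 (SERPINH1, HSPA5, HSP90B1, DNAJB11 and DNAJC3) and lost 7. Same-numbered libraries were not paired: over all tested genes the deviations of equal numbers correlated at 0.0025, 0.043 and 0.070, and over the 43 members at 0.43, 0.56 and 0.72. Without DNAJB5 the member values were 0.32, 0.41 and 0.16. A filter of 50 counts in 3 libraries, or the TPM filter, left out HSPA6.

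Of 770 pairs of a member result and an alternative, 94 changed sign, all in 25 members that had log2 fold changes under 0.1 in size and were not called; the cause was not tested. With library size alone these were HSPH1 (-0.0043), HSP90AA1 (-0.031), DNAJB1 (-0.016), FKBP4 (-0.011), CCT4 (-0.0081), CCT5 (-0.0022), CCT8 (-0.031), HSPD1 (-0.0023) and TRAP1 (-0.016). With upper-quartile scaling they were HSP90AA1 (-0.0082) and CCT8 (-0.0088), and with the 50-count filter HSP90AA1 (-9.6e-04) and CCT8 (-0.0014). On TPM, under its 3 settings, they were HSF1 (0.043), HSPH1 (-0.036), HSP90AA1 (-0.040), DNAJB1 (-0.034), CHORDC1 (0.031 or 0.032), FKBP4 (-0.024), CCT2 (-0.022), CCT4 (-0.021), CCT5 (-1.2e-04), CCT8 (-0.049), HSPD1 (-0.038) and TRAP1 (-0.049). Leaving out 1 library gave ranges across 0 for HSF1 (-0.15 to 0.044), HSF2 (-0.088 to 0.042), HSPH1 (-0.025 to 0.089), HSP90AA1 (-0.021 to 0.029), DNAJB1 (-0.049 to 0.060), BAG3 (-0.044 to 0.027), CHORDC1 (-0.14 to 0.091), AHSA1 (-0.14 to 0.081), HSPA4 (-0.049 to 0.0019), HSPA4L (-0.051 to 0.017), HSPA8 (-0.062 to 0.032), DNAJA1 (-0.069 to 0.014), DNAJB5 (-0.34 to 0.67), DNAJB6 (-0.14 to 0.048), PTGES3 (-0.13 to 0.096), FKBP4 (-0.0067 to 0.068), CCT2 (-0.0040 to 0.061), CCT4 (-0.0039 to 0.052), CCT5 (-0.015 to 0.065), CCT6A (-0.052 to 8.8e-04), CCT8 (-0.011 to 0.019), HSPD1 (-0.0011 to 0.056), TRAP1 (-0.013 to 0.039), DNAJA3 (-0.076 to 0.022) and CLPB (-0.025 to 0.17). HSPA1A, HSPA1B, BAG1, HSPA13, HSPA9, DNAJA2 and HSPA14 kept their sign in each of the 6 fits, with an edgeR adjusted p of 0.0983 to 0.196 for HSPA13, 0.0785 to 0.232 for HSPA9 and 0.107 to 0.271 for HSPA1A.

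With 3 libraries a group, HSPA6, at 26 to 37 counts, and DNAJB5 were measured least precisely. Reads of the near-identical HSPA1A and HSPA1B, and of overlapping genes, are not told apart by these counts.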
